A study of Mus musculus with 2 samples.

Results

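MicroRNA genes known from neurons were measured in the lungs of mouse embryos at embryonic day 15.5. The 8 genes were Mir137, the copies Mir128-1 and Mir128-2, the copies Mir9-2 and Mir9-3, and the copies Mir124a-1, Mir124a-2 and Mir124a-3. They were listed by gene name, with earlier results of these data known, out of 1973 microRNA genes in each deposited table, and all 8 were found there. The samples were 2 libraries of 1 group: lungs of healthy B6NCrl embryos of both sexes, without treatment, pooled from 78 embryos for biological replicate 1 and from 62 embryos for biological replicate 2. The labels give both pools 1 shared donor identifier, and their spread reflects differences between pools and between library preparations, not between strains. Whole lung holds epithelium, mesenchyme, vessels, blood and nerve tissue together, and the labels record no sorting.

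MicroRNAs are short RNAs cut from hairpin precursors. The cut leaves a 5p and a 3p arm, and the seed, bases 2 to 8 of the arm that is loaded into an Argonaute protein, pairs with target messenger RNAs. miR-124 is the classic microRNA of differentiated neurons, miR-9 belongs to neural progenitors and young neurons, and miR-137 and miR-128 are enriched in brain, where they are studied in neuronal maturation and excitability. The embryonic lung receives nerve fibres from the vagus, and neural crest cells form small ganglia along its airways.

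The mature arms are shown because they decide which reads can be given to a single gene. RefSeq (build GRCm38.p6) held hairpins and mature arms for 5 of the 8 genes, and Mir124a-1, Mir124a-2 and Mir124a-3 had no entry. Each arm is written 5′ to 3′ with its seed in capitals.
miR-137-5p: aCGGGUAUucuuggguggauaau
miR-137-3p: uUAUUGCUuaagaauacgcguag
miR-128-1-5p: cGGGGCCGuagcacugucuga
miR-128-2-5p: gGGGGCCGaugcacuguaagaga
miR-128-3p: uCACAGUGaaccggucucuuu
miR-9-5p: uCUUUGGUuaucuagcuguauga
miR-9-3p: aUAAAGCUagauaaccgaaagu

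Both arms of Mir137 were found in no other gene of the RefSeq table, and no other mature microRNA there carried either seed. The 3p arm of miR-128 was the same 21 bases in Mir128-1 and Mir128-2. Their 5p arms differed in sequence, with at most 7 bases in a row in common, but carried the same seed. Both arms of miR-9 were identical in Mir9-2 and Mir9-3 and in the copy Mir9-1, which was not analysed here. By seed, the 5 genes with sequences therefore fell into 3 groups: Mir137 alone, the Mir128 pair, and the Mir9 copies.

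The hairpins show where a read could tell the copies apart. Capitals mark bases that lie in a stretch of at least 20 identical bases shared with another hairpin of the RefSeq table, on either strand, and lower case marks bases outside such stretches.
Mir137, chr3:118433857-118433929, plus strand: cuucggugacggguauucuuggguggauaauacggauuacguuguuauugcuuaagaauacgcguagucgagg
Mir128-1, chr1:128202361-128202430, plus strand: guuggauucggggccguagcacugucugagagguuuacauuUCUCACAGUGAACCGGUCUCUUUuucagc
Mir128-2, chr9:112118636-112118711, minus strand: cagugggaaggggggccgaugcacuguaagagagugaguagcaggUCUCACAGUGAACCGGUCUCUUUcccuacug
Mir9-2, chr13:83738814-83738885, plus strand: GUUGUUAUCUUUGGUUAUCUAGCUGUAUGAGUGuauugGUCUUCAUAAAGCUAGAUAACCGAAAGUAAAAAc
Mir9-3, chr7:79505264-79505353, plus strand: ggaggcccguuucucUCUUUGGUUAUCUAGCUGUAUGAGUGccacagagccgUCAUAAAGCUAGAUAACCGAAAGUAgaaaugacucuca

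Mir137 had no shared stretch. The Mir128 hairpins shared 23 bases with each other, which hold the whole 3p arm, whereas their 5p arms lay outside it. In Mir9-2, 66 of 72 bases were shared, and in Mir9-3, 51 of 90, and in both hairpins the shared stretches held the whole of both arms. Of the 5 hairpins, 4 had a shared stretch. Among the 869 genes of the count table with a RefSeq hairpin, 12.9% had one. Reads that mapped to several places, 31.4% of all reads in replicate 1 and 30.6% in replicate 2, are tallied on a summary line of the deposited tables and were treated as assigned to no gene. A count for a Mir128 or Mir9 copy is thus a count of the reads that could be told apart, and the part played by shared sequence in their levels was not tested.

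**Figure D1:**
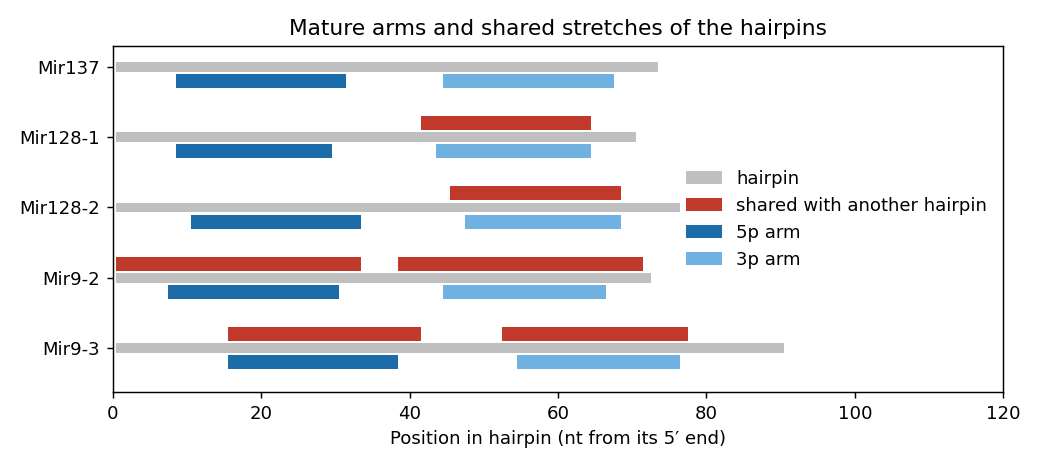
Position in the hairpin, in nucleotides from its 5′ end, of the 5p and 3p arms (dark and light blue) and of stretches of at least 20 bases shared with another RefSeq hairpin (red), for the 5 genes with a RefSeq entry. Mir137 has no red bar, the Mir128 copies have 1 over the 3p arm, and the Mir9 copies have red bars over both arms.

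The genes lie at 8 separate loci. In the annotation (GENCODE M21 on GRCm38, the assembly called mm10), Mir137 lies in an exon of the noncoding gene Gm26871. Mir128-1 lies in an intron of R3hdm1 and Mir128-2 in an intron of Arpp21, a gene of neurons that is known for its expression in the striatum, each on the strand of its host. Mir9-2 lies in an exon of the long noncoding gene C130071C03Rik, and Mir9-3 in an intron of Mir9-3hg. Mir124a-1 (chr14:64590657-64590741) lies in an exon of its host Mir124a-1hg. Mir124a-2 (chr3:17795662-17795770) lies in Mir124-2hg, with 27 of its 109 bases in exons. Mir124a-3 (chr2:180894040-180894107) overlaps Gm27032 by 3 bases and has no host around it.

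Depth limits the low values. Replicate 1 held 5354530 counts on the annotated strand of microRNA genes and replicate 2 held 6489390, so that 1 count equalled 0.187 and 0.154 CPM (counts per 1000000 gene counts). Genes with at least 10 counts in both libraries are called detected here, which held for 18.1% of all 1973 genes. Mir126a of endothelium, the miR-200 genes of epithelium (5 of 5) and Mir143 and Mir145a of smooth muscle were detected. The same held for Mir122 of liver, so detection alone does not identify the tissue. The libraries differed by a median of 1.10-fold over the 357 detected genes, and by 1.47-fold at the 90th percentile.

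Some neural microRNA genes were counted in these lungs, led by Mir137 and Mir128-1 among the reads given to single genes. By mean CPM they held ranks 175 and 189 among all 1973 genes. Detected were 3 of the 8 genes, Mir137, Mir128-1 and Mir128-2, beside 18.1% of all 1973 genes. Mir9-3 had counts in both libraries but missed the minimum in replicate 1, and Mir9-2, Mir124a-1, Mir124a-2 and Mir124a-3 had 0 counts in both. The 8 genes together held 0.0327% of the counts in replicate 1 and 0.0192% in replicate 2, a mean of 0.0259% ± 0.00961 (SD, n = 2). In a bulk sample, fewer cells of a type and less RNA per cell cannot be told apart.

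Mir137, known from neuronal maturation, had 889 counts in replicate 1 and 700 in replicate 2. These equalled 166 CPM (95% exact Poisson interval 155 to 177) and 108 CPM (100.02 to 116), a mean of 137 ± 41.1 CPM (SD, n = 2) and rank 175 by mean CPM in the table. Replicate 1 was the higher, and the counting intervals of the libraries did not overlap. Mir137 held 50.7% of the counts of the 8 genes in replicate 1 and 56.3% in replicate 2, the largest share in each library. These shares were taken to leave out reads of the arms that the Mir128 or Mir9 copies have in common.

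Mir128-1, the copy in R3hdm1, had 634 counts in replicate 1 and 460 in replicate 2. Its level was 118 CPM (109 to 128) and 70.9 CPM (64.6 to 77.7), a mean of 94.6 ± 33.6 CPM (SD, n = 2) and rank 189. Replicate 1 was again the higher, and again without overlap of the counting intervals.

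Mir128-2, the copy in Arpp21, had 221 counts in replicate 1 and 65 in replicate 2. Its level was 41.3 CPM (36.0 to 47.1) and 10.02 CPM (7.73 to 12.8), a mean of 25.6 ± 22.1 CPM (SD, n = 2) and rank 248. The SD was nearly as large as the mean. The Mir128 copies together stood at 160 CPM in replicate 1 and 80.9 CPM in replicate 2, close to Mir137 in the first library and below it in the second. Reads of the arm that the copies share were treated as assigned to neither, so this sum can be too low.

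Mir9-3 had 9 counts in replicate 1 and 18 in replicate 2. This is 1.68 CPM (0.769 to 3.19) and 2.77 CPM (1.64 to 4.38), a mean of 2.23 ± 0.773 CPM (SD, n = 2), and here replicate 2 was the higher, with overlapping intervals. For the genes at 0, a limit of 3 counts equals 0.560 CPM in replicate 1 and 0.462 CPM in replicate 2. That limit holds only for reads that map to a single place, so the counts of 0 for Mir9-2, whose arms are identical in Mir9-3, and for the numbered Mir124a copies were not read as absence. No read was counted on the opposite strand of any of the 8 genes. The sources record no molecular identifiers, so the intervals and limits reflect counting error alone.

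**Figure D2:**
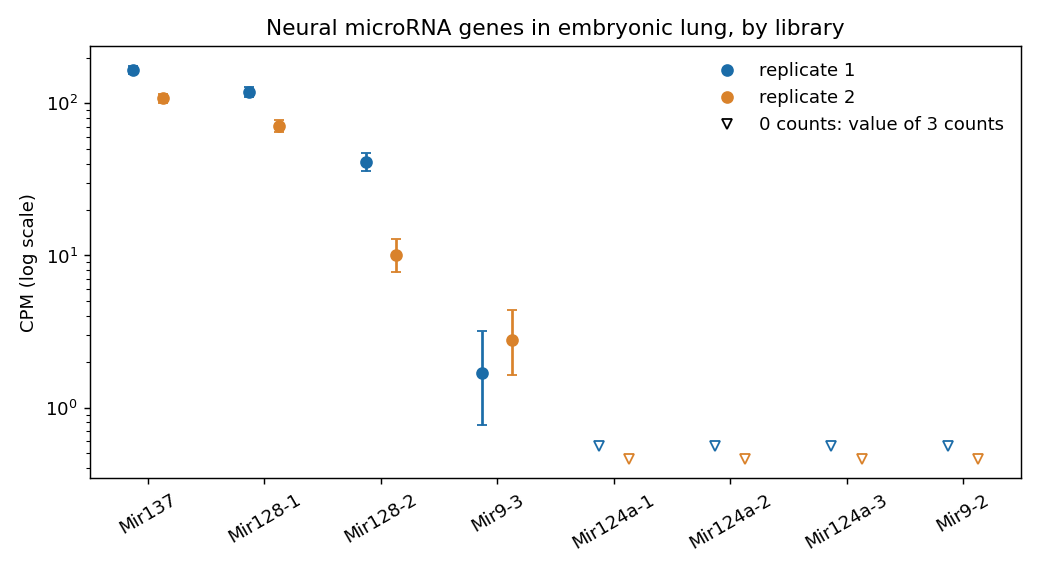
CPM on a log scale for each of the 8 genes in replicate 1 (blue) and replicate 2 (orange), with 95% exact Poisson intervals; open triangles stand for genes with 0 counts and are drawn at the value of 3 counts. Mir137, Mir128-1 and Mir128-2 lie between 10.02 and 166 CPM and are higher in replicate 1, Mir9-3 lies below 3 CPM, and the other 4 genes have no counts.

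By the reads given to single genes, the order of the levels was Mir137, Mir128-1, Mir128-2 and Mir9-3 in each library. Reads of arms that the Mir128 or Mir9 copies share were treated as assigned to no gene. The order and the folds below are therefore uncertain. Mir137 exceeded Mir128-1 by a log2 ratio of 0.49 in replicate 1 and 0.61 in replicate 2, a mean of 0.55 ± 0.0835 (SD, n = 2) or 1.46-fold. The difference went the same way in both libraries, but the values of the pair overlapped across libraries, as Mir128-1 in replicate 1 (118 CPM) stood above Mir137 in replicate 2 (108 CPM). An exact 2-sided permutation test of log2 CPM gave p = 0.667. That test treats the values as unpaired, although both genes were read in the same libraries. An exact 2-sided test that flips the sign of the difference inside each library, added after the data had been seen, gave p = 0.5 for each of the 5 comparisons, which is the smallest that 2 libraries allow. Mir128-1 exceeded Mir128-2 by a log2 ratio of 1.52 and 2.82, a mean of 2.17 ± 0.921 or 4.51-fold, with no overlap across libraries. The same exact test gave p = 0.333, the smallest that 2 values against 2 allow, and 0.417 after Benjamini-Hochberg adjustment over the 5 comparisons made in this way. No comparison of this size can reach 0.05. These p-values follow from the order of the values and the number of libraries, and do not measure the spread between the 2 pools.

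The replicates differed more in these genes than in most others. Among the 3 detected genes, all were lower in replicate 2, beside 49.0% of all detected genes (175 of 357). Mir137 had a log2 ratio of CPM, replicate 2 over replicate 1, of -0.62 (95% exact binomial interval -0.77 to -0.48). For Mir128-1 it was -0.74 (-0.92 to -0.56). Mir128-2 stood at -2.04 (-2.46 to -1.64), a 4.12-fold difference. Its interval did not overlap that of Mir128-1. Both ratios rest on reads that could be told apart, since reads of the shared 3p arm were treated as assigned to neither gene. None of the 357 detected genes had a lower ratio than Mir128-2, and 1 gene tied with it; 12 genes had a lower ratio than Mir128-1 and 15 a lower one than Mir137.

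A difference of more than 1.5-fold toward replicate 1 was seen in 3 of the 3 detected genes, beside 5.32% of all detected genes, and more than 2-fold in 1 of the 3, beside 1.68%. Mir137 passed 1.5-fold narrowly, at 1.54-fold. The median log2 ratio was -0.74 for the 3 genes and 0.01 for all 357. Of the 5 other genes, Mir9-3 had a ratio of 0.72 with an interval from -0.51 to 2.06, and the other 4 gave none. Each pool was sequenced once, so these ratios compare 2 libraries, and no p-value was computed for them.

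**Figure D3:**
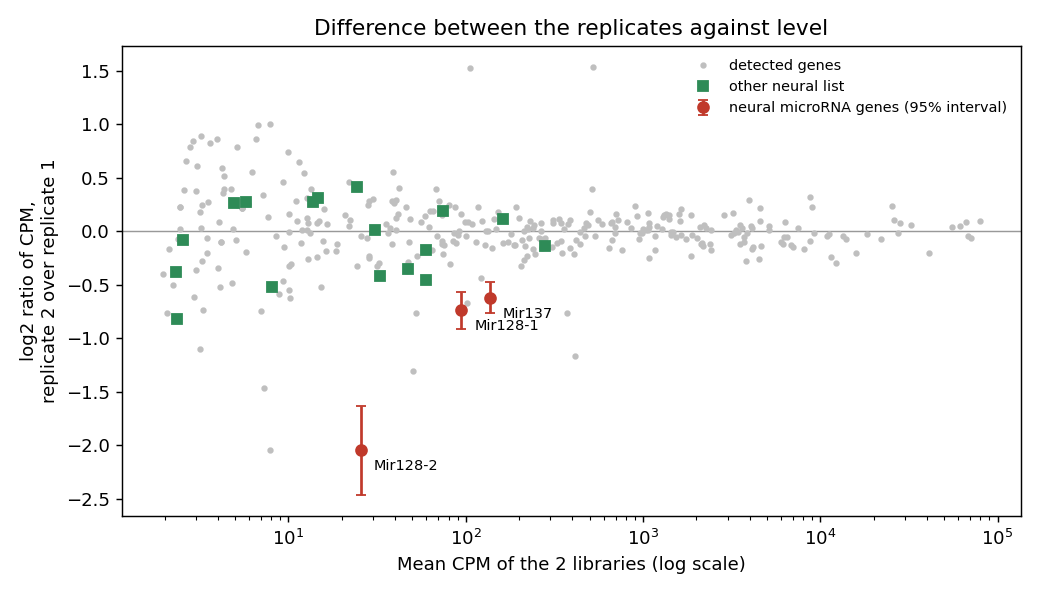
log2 ratio of CPM in replicate 2 over replicate 1 against mean CPM on a log scale, for the 357 detected genes (grey), the detected genes of the other neural list (green squares) and the detected neural microRNA genes (red, with 95% exact binomial intervals). Mir137 (-0.62), Mir128-1 (-0.74) and Mir128-2 (-2.04) lie among the lowest points at their levels, while the green squares spread on both sides of 0.

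A list of other microRNA genes known from neurons or glia was mostly detected. Of its 22 genes in the table, 17 were detected, beside 18.1% of all genes. Of the 17, 9 were lower in replicate 2 and 8 higher, beside 49.0% of all detected genes that were lower (175 of 357), with a median log2 ratio of -0.08 and a range from -0.82 to 0.42. Of the 17, Mir384, at 16 and 11 counts, was the only gene to differ by more than 1.5-fold in either direction, beside 9.8% of all detected genes. The list summed to 851 CPM in replicate 1 and 814 CPM in replicate 2, and 2 of its genes, Mir1264 and Mir1912, had 0 counts in both libraries. Whether its genes differ from the 8 in their ratios was not tested.

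By level, Mir132 led this list at 294 and 267 CPM, a mean of 281 ± 18.8 CPM (SD, n = 2). It is known as a microRNA induced by neuronal activity, and is also known from vascular cells. Its neighbour Mir212 reached 30.7 ± 0.135 CPM. Mir598 stood at 157 and 169 CPM, a mean of 163 ± 8.87 CPM, so that Mir132 and Mir598 exceeded Mir137 in mean CPM, but Mir598 in replicate 1 lay below Mir137 in the same library.

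The Mir7 genes, known from neuroendocrine cells as well as neurons, were detected at 74.8 ± 6.94 CPM for Mir7-1, 33.0 ± 6.74 CPM for Mir7b and 2.31 ± 0.432 CPM for Mir7-2. The Mir138 copies reached 59.9 ± 5.02 CPM (Mir138-2) and 47.4 ± 8.22 CPM (Mir138-1), both with smaller SDs than the Mir128 copies. Numbered copies in this list can lose reads that map to several places, so their levels are uncertain too. Among genes known from myelinating glia, Mir338 stood at 59.4 ± 13.2 CPM and Mir219a-1 at 24.4 ± 4.93 CPM. The lower members ran from Mir383 (14.6 ± 2.20 CPM) and Mir153 (13.8 ± 1.83 CPM) over Mir129-1 (8.08 ± 2.05 CPM), Mir1298 (5.77 ± 0.770 CPM) and Mir129-2 (4.94 ± 0.644 CPM) to Mir488 (2.54 ± 0.105 CPM) and Mir384 (2.34 ± 0.914 CPM; SD, n = 2 for all).

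The genes with the most similar values over the 2 libraries were found by Euclidean distance of log2(CPM + 1) among detected genes, 3 for each gene. For Mir137 they were Mir29a (140 and 103 CPM), Mir496a (149 and 134 CPM) and Mir500 (135 and 123 CPM), at distances of 0.26 to 0.36. For Mir128-1 they were Mir155 (125 and 78.3 CPM, distance 0.16), Mir495 (89.5 and 72.6 CPM) and Mir362 (91.9 and 85.2 CPM). Mir128-2 had no close match. Its nearest genes, Mir34b (27.1 and 21.6 CPM), Mir1247 (17.9 and 12.5 CPM) and Mir302d (19.6 and 17.3 CPM), lay at distances of 1.19 to 1.27. With 2 libraries such likeness reflects mostly the level.

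Some genes of the striated muscle and liver lists also differed between the replicates. The striated muscle list summed to 929 CPM in replicate 1 and 1239 CPM in replicate 2. Of its 8 genes in the table, 4 were detected, beside 18.1% of all genes. Mir1a-1, Mir133a-1 and Mir133a-2 were at 0, but as numbered copies they can lose reads that map to several places. Within the list, Mir208a, of the heart myosin gene Myh6, was lower in replicate 2 (573 and 255 CPM, log2 ratio -1.17). Mir208b, of Myh7, was higher (269 and 780 CPM, 1.53), as was Mir206 of skeletal muscle (54.2 and 156 CPM, 1.53). Mir499 was higher by less (31.6 and 46.4 CPM, 0.56).

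The liver list summed to 564 and 377 CPM, with 3 of 4 genes detected, beside 18.1% of all genes, and none at 0. Its defining gene Mir122 had a log2 ratio of -0.76 (470 and 278 CPM). The other detected genes of the list, Mir192 (0.14) and Mir194-2 (0.07), were slightly higher in replicate 2, so the fall in the list's sum came from Mir122. The erythroid list summed to 706 and 855 CPM with 3 of 3 detected, beside the same 18.1%. Mir451a had a log2 ratio of 0.39 (445 and 585 CPM), while Mir144 (0.06) and Mir486 (0.05) were nearly level. Mir375, of neuroendocrine cells, stood at 4226 and 4930 CPM (log2 ratio 0.22). The miR-200 genes had log2 ratios from -0.05 to 0.12. The part of these markers in the difference between the libraries in Mir137, Mir128-1 and Mir128-2 was not tested.

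**Figure D4:**
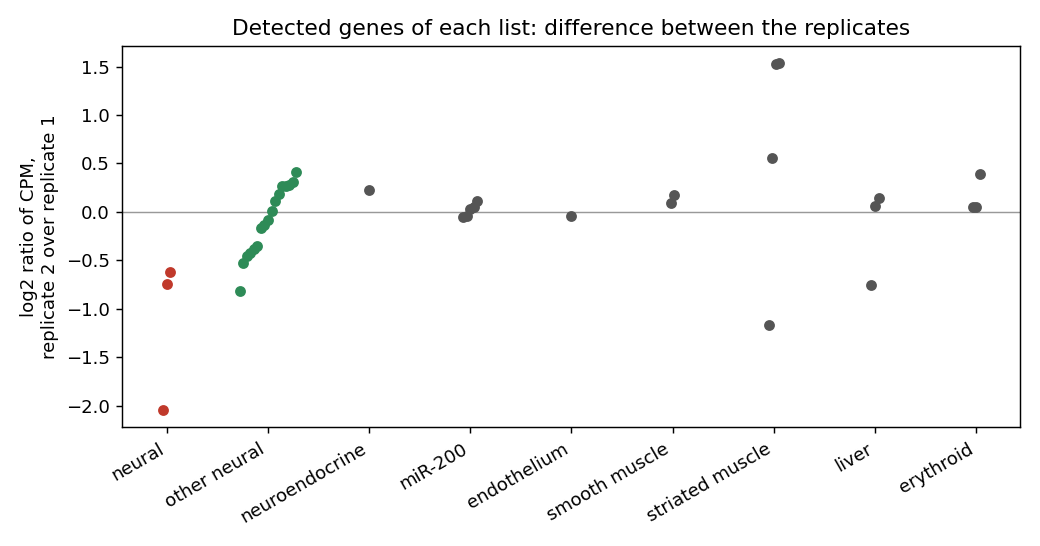
log2 ratio of CPM in replicate 2 over replicate 1 for each detected gene of 9 marker lists, 1 point a gene; points of a list are spread sideways in order of value. The 3 neural microRNA genes (red) lie between -2.04 and -0.62, the other neural list (green) lies between -0.82 and 0.42, the miR-200 genes stay near 0, and the striated muscle genes spread from -1.17 to 1.53.

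Compared with the striated muscle and liver lists, the 8 neural genes took the smaller share in each library. They were below the striated muscle list by a log2 ratio of -1.50 in replicate 1 and -2.69 in replicate 2, a mean of -2.10 ± 0.841 (SD, n = 2) or 4.28-fold. Against the liver list the log2 ratio was -0.79 and -0.98, a mean of -0.88 ± 0.136 or 1.84-fold. Against the miR-200 genes, which stand for the epithelium of the lung itself, it was -6.61 and -7.36, a mean of -6.98 ± 0.532 or 127-fold. Each difference exceeded its SD and went the same way in both libraries, and the exact 2-sided permutation test gave p = 0.333 for each (0.417 adjusted), the smallest possible. All 3 folds are uncertain, because numbered copies can lose reads that map to several places. The neural, striated muscle and liver lists hold such copies, and the miR-200 list holds none. Those of the muscle list had no counts, so leaving copies out changed only the neural side against muscle and miR-200. With such copies left out, which leaves Mir137 alone on the neural side, the log2 ratio was -3.003 (8.02-fold) against muscle, -1.66 (3.16-fold) against liver and -7.89 (237-fold) against the miR-200 genes.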

How the data were processed

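Each library was deposited as a table of raw counts for microRNA genes on mm10 with annotation M4, per the readme of the authors. The aligner and counting tool were not given in the sources used here, and no filter or duplicate removal is recorded. Of 3 count columns, the first equals the sum of the others in every gene, and of those the one with more reads was taken as the annotated strand. Gene names came from GENCODE M21, which matched 1894 of 1973 identifiers with versions ignored. The 4 summary lines were left out of library sizes. CPM was computed over all gene rows and not divided by length, since a read spans a whole arm, with means and SDs over the 2 replicates. Intervals were exact at 95%. Detected means at least 10 counts in both libraries.

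The members, the gene lists, the tests and the 1.5-fold and 2-fold thresholds were chosen with earlier results of these data known. The genes named were the 8 members, detected genes of the lists and the 3 nearest genes of each detected member. The rule also took the highest undetected gene of the other neural list, Mir219a-2. Mir1264, Mir1912, Mir1a-1, Mir133a-1 and Mir133a-2, all at 0, fell outside this rule, as did the neighbouring genes in the closing section. They were named after their values were seen. With 1 group no count model was tested. Genes and lists were compared by exact permutation of log2 CPM and, as an alternative chosen after seeing the data, by exact sign flips within libraries. Shared stretches were searched among the 1005 hairpins of the RefSeq table, without a genome, so they are a minimum. Alternatives used edgeR 4.0.16 (TMM) and DESeq2 1.42.0 size factors in R 4.3.3. Replicate ratios and their binomial intervals were run on simulated Poisson counts without variation between pools. That run could therefore not test the spread between pools, and the Poisson intervals of the levels were not part of it. Other steps used Python 3.11.15, pandas 2.3.3, numpy 2.4.6, scipy 1.17.1 and matplotlib 3.10.9.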

Additional observations from a re-analysis of the deposited data

How the results depend on the processing

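No result changed direction under the alternatives run. The 5 comparisons were rerun with counts regardless of strand and with each library alone. No read lay on the opposite strand of the 8 genes, and ignoring strand left these comparisons nearly unchanged. The single libraries give the values already printed for each comparison, so these reruns could add no support. The comparisons between lists were also rerun with numbered copies left out. Against striated muscle and miR-200 this took counts from the neural list alone, already the lower, so it could not reverse the order. Minimum counts of 1 and 100 were applied to detection and replicate ratios. TMM and DESeq2 size factors were applied to replicate ratios alone. Leaving Mir143 out of the total was applied to replicate ratios and the neural share. The neural share of 0.0259% became 0.0123% with all reads as denominator, which adds reads outside genes. It became 0.0137% with Mir137 alone. Among the 5 members with a RefSeq hairpin, Mir137 is the only gene whose arms occur in 1 hairpin. Other neural genes detected fell from 17 to 9 with a minimum of 100 counts. Detected members were 4 with a minimum of 1 count and 2 with 100. Leaving numbered copies out of both lists moved the folds against striated muscle, liver and miR-200 by over 1.5 times, to 8.02, 3.16 and 237. In single libraries the share ran from 0.0192% to 0.0327%, and replicate 2 alone had 4 members detected. The log2 ratio of Mir128-2 between replicates was -2.02 with TMM and -2.03 with DESeq2 size factors. Exact sign flips within libraries, an alternative chosen after seeing the data, gave p = 0.5 for each of the 5 comparisons. Such a test cannot change their size or direction. Mir9-3, at 9 and 18 counts, is too shallow to order the libraries.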

Other observations

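Glial and locus neighbours added a few values. Mir219a-2, a second copy of the oligodendrocyte microRNA Mir219a-1, missed the minimum with 7 counts in replicate 1 and 39 in replicate 2, a log2 ratio of 2.20 (95% exact binomial interval 1.02 to 3.61), in the direction opposite to Mir137 and the Mir128 copies. Within 10000 bp of the 8 genes the annotation holds 2 other microRNA genes on the same strand. Mir3078, 443 bp from Mir124a-1, had 0 counts in replicate 1 and 1 in replicate 2, and Gm24155, 791 bp from Mir137, had 0 in both.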
